A study of Mus musculus with 6 samples.

Results

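The genes described here are 10 macrophage markers, read by gene symbol from the 47729 genes that were quantified in brown adipose tissue (BAT). They were grouped by role into 4 pan-macrophage markers (Adgre1, Cd68, Csf1r and Lyz2), 3 markers of resident macrophages (Mrc1, Cd163 and Clec10a) and 3 markers of lipid-associated or inflammatory macrophages (Itgax, Trem2 and Gpnmb). All 10 passed the filter on low counts, and 17668 genes were tested in all.

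BAT came from wild-type male C57BL/6J mice that were housed singly and kept for 4 weeks, from 6 to 10 weeks of age, on either a standard rodent diet, called the low-fat diet (LFD), or a high-fat diet in which fat makes up 45% (HFD). The pad on the right side between the shoulder blades was taken from 3 mice per diet, which the study picked to span the range of fat mass in their group. Total RNA freed of ribosomal RNA was read from 1 end over 75 bases. The comparison asks how these marker genes differ between the BAT of mice made obese by HFD and that of lean mice.

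Macrophages are phagocytes that live in adipose tissue between the fat cells, where they clear dying cells, handle lipid and iron, and release cytokines. Resident macrophages, which carry scavenger receptors and C-type lectins, are found in lean fat, whereas macrophages that gather around dying fat cells in obesity take up lipid and switch on a lysosomal and lipid-handling set of genes that depends on the receptor TREM2. The transcription factor PU.1 is needed for macrophage development and binds a purine-rich core, and the MiT/TFE factors that govern lysosomal genes, Gpnmb among them, bind a short E-box-like sequence.

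The promoters of 1 resident and 2 lipid-associated markers are shown because the fitted difference of Mrc1 was near 0 while Trem2 and Gpnmb were higher in every HFD-fed mouse on the scale of normalised counts. The 250 bases before the RefSeq start of each gene are given 5' to 3' on the gene's own strand, on build GRCm38.p6, at chr2:14229164-14229413 for Mrc1, chr17:48346151-48346400 for Trem2 and chr6:49036268-49036517 for Gpnmb. All 3 genes lie on the plus strand. Capitals mark matches on either strand to GAGGAA, the PU.1 core, or to CATGTG or CACGTG, the MiT/TFE sequence, so that a minus-strand GAGGAA reads TTCCTC and a minus-strand CATGTG reads CACATG.
Mrc1: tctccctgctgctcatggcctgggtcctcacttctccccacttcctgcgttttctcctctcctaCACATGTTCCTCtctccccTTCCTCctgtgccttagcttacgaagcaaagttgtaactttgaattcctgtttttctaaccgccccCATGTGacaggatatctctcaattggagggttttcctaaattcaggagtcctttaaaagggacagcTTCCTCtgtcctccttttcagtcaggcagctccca
Trem2: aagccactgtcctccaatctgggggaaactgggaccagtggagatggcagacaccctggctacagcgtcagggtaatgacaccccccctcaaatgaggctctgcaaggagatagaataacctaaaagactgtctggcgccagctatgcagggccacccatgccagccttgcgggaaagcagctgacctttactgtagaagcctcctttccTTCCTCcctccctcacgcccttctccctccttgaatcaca
Gpnmb: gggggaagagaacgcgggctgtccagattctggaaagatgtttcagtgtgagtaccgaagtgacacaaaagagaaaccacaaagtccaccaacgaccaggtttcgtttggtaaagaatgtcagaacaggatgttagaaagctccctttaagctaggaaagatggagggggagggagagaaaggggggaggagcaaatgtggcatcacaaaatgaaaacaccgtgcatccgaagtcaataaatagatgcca
Mrc1 held 3 matches to GAGGAA, all on the minus strand, the nearest of them 35 to 30 bases before the start, and 2 matches to CATGTG. The farther CATGTG match, at 186 to 181 bases before the start, is joined directly to the GAGGAA match at 180 to 175, without overlap. Trem2 held 1 match to GAGGAA, at 40 to 35 bases before the start, and Gpnmb held no match to either motif in this window. Among all 32851 RefSeq promoters of this length, 23.3% held GAGGAA and 17.6% held CATGTG or CACGTG. RefSeq windows were found for 7 of the 9 markers searched, of which Cd68 held 1 GAGGAA match and Lyz2, Cd163 and Itgax held none of either motif. A match describes these letters only.

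Between 17156991 and 21603487 rounded counts were available per mouse. Transcripts of the mitochondrial genome took 8.50% to 22.7% of the counts in HFD-fed and 3.87% to 13.8% in LFD-fed mice. One mouse, LFD replicate 1, stood apart for these markers. Its summed level of the 4 pan-macrophage markers was 310.1 TPM (RSEM's transcript abundance, a level scaled by gene length and to the same total in each library), against 1333 to 3139 TPM in the other 5 mice, and it was the lowest mouse in log2 CPM for 8 of the 10 markers, all but Cd163 and Clec10a. Values without it are therefore given beside the results of the 10 markers and of many, though not all, of the other genes named. Skeletal muscle markers were also lower in every HFD-fed mouse. Most brown adipocyte markers had a higher fitted level in HFD-fed mice without passing the test, as set out at the end. In bulk tissue, fewer macrophages and less of a transcript per macrophage cannot be told apart.

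A gene was called where edgeR's quasi-likelihood test gave an adjusted p below 0.01 and the log2 fold change exceeded 1.5 in either direction. None of the 10 markers and none of the 17668 genes tested (0%) met both. At an unadjusted p under 0.05, edgeR placed 3 of the 10 markers higher (3.86% of all genes) and 1 lower (6.62% of all genes) in HFD-fed mice. DESeq2 with default settings called 412 of 19965 genes (2.06%, with 0.531% higher and 1.53% lower in HFD-fed mice), of which Gpnmb, higher, was the only marker. With no independent filtering and no Cook's cutoff it called 386 of 29856 (1.29%, with 0.325% higher and 0.968% lower), again with Gpnmb alone. By sign only, 6 of the 10 markers had a higher fitted level in HFD-fed mice (45.6% of all genes) and 4 a lower one (54.4% of all genes), though Csf1r and Mrc1, among the lower, changed sign when single mice were left out. In normalised counts (log2 CPM), 5 of the 10 markers lay higher in every HFD-fed than in any LFD-fed mouse (6.72% of all genes did) and 1 lay lower (9.23% of all genes). In TPM these counts were 2 higher (1.65% of all genes) and 1 lower (11.6% of all genes). The smallest p that an exact permutation test of 3 against 3 mice can give is 0.1, and non-overlapping markers reach it.

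**Figure D1:**
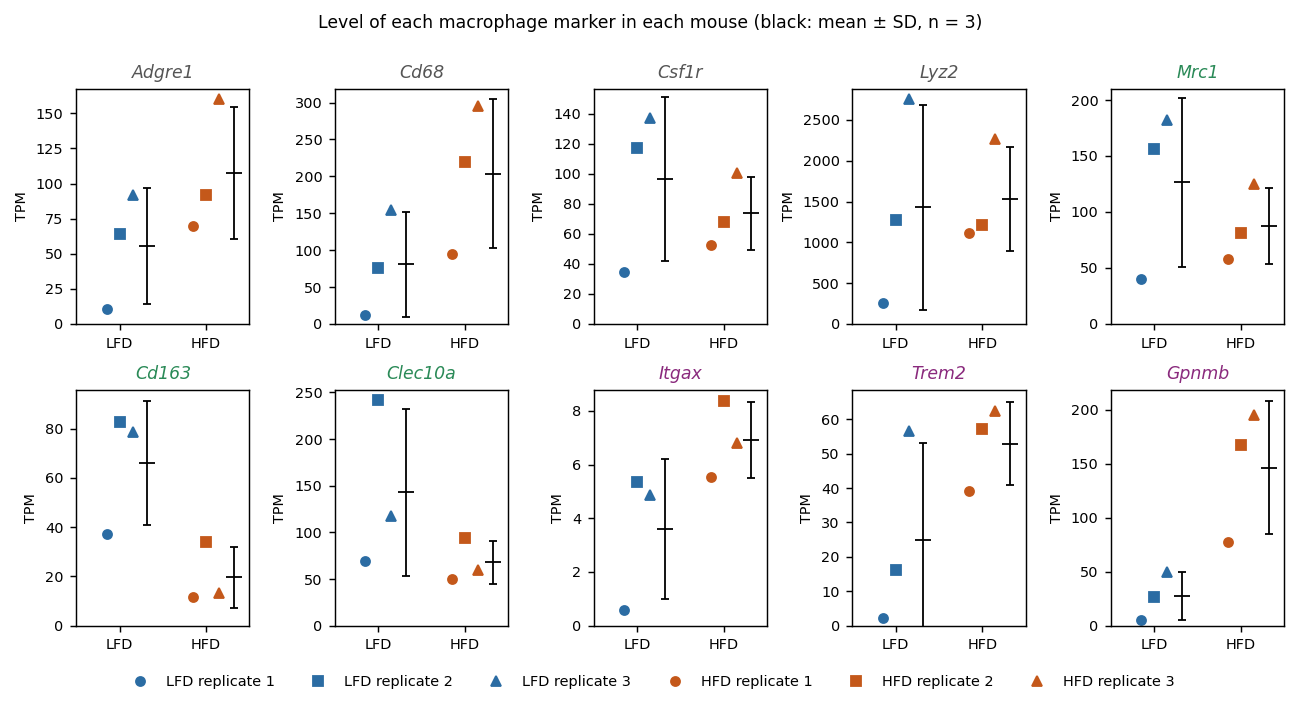
TPM (y axis, linear, from 0) of each of the 10 markers in each mouse by diet (x axis), with symbols for the replicate number and a black bar for the mean ± SD (n = 3; the lower end for Trem2 in LFD runs past the axis). Titles are grey for pan-macrophage, green for resident and purple for lipid-associated or inflammatory markers, and Gpnmb, Itgax and Cd163 are the markers whose diets do not overlap.

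Adgre1 and Cd68 were higher in HFD-fed mice by 2.56 and 3.30 times in the edgeR fit, whereas Csf1r and Lyz2 overlapped between diets. None of the 4 passed the test, and their median was 0.95 on the log2 scale, beside -0.05 over all genes tested.

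Adgre1 encodes F4/80, the surface receptor by which mouse macrophages are usually stained (chr17:57358691-57483527, plus strand, GRCm38). Its level was 70.0, 91.7 and 160.2 TPM in HFD replicates 1 to 3 and 10.6, 64.2 and 92.2 TPM in LFD replicates 1 to 3. The diets overlapped in TPM, because LFD replicate 3 reached the level of the middle HFD-fed mouse, but not in log2 CPM, where HFD-fed mice held 8.14 ± 0.38 and LFD-fed mice 6.56 ± 1.16 (SD, n = 3). In the edgeR fit the log2 fold change of Adgre1 was 1.36 ± 0.55 (SE; adjusted p = 0.465).

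Cd68 encodes macrosialin, a glycoprotein of the lysosomal membrane of phagocytes (chr11:69664213-69666153, minus strand). It was measured at 95.2, 219.6 and 295.1 TPM in HFD replicates 1 to 3 and at 12.7, 76.0 and 154.5 TPM in LFD replicates 1 to 3. LFD replicate 3 lay above HFD replicate 1 in TPM, and the diets were apart in log2 CPM (7.51 ± 0.45 against 5.48 ± 1.35, SD, n = 3). For Cd68, edgeR fitted a log2 fold change of 1.72 ± 0.63 (SE; adjusted p = 0.413).

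Csf1r encodes the receptor for CSF1 and IL-34, on whose signal macrophages depend for survival (mouse chromosome 18). Its level was 52.9, 68.2 and 100.6 TPM in HFD replicates 1 to 3 and 34.4, 117.6 and 137.3 TPM in LFD replicates 1 to 3. The lowest and the highest mouse were both LFD-fed, so the HFD-fed mice lay inside the LFD range. For Csf1r, edgeR fitted a log2 fold change of -0.03 ± 0.35 (SE; adjusted p = 0.989). The gene shares 873 bases with Hmgxb3 on the opposite strand, and a microRNA gene, Mir6983, lies within it.

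Lyz2 encodes lysozyme M, an antibacterial enzyme of macrophages and neutrophils (chr10:117277331-117282321, minus strand), and was the most abundant marker in either diet. It was measured at 1115, 1213 and 2264 TPM in HFD replicates 1 to 3 and at 252.4, 1279 and 2755 TPM in LFD replicates 1 to 3. The LFD-fed mice spanned a range that took in all 3 HFD-fed mice. Its log2 fold change was 0.54 ± 0.66 (SE; edgeR adjusted p = 0.862). Of the 75-base windows of its transcripts, 5.96% also occur in the neighbouring paralog Lyz1, which was measured at no more than 21.4 TPM in any mouse.

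Without LFD replicate 1, the log2 fold changes of Adgre1 and Cd68 were 0.94 and 1.26, that of Lyz2 was 0.11 and that of Csf1r was -0.30. Without LFD replicate 3, that of Lyz2 was 1.23. The values of Adgre1, Cd68 and Lyz2 were thus nearer to 0 without LFD replicate 1, and that of Csf1r was farther from it.

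Cd163 was lower in all 3 HFD-fed mice, by 2.88 times in the edgeR fit, Clec10a was 1.64 times lower with overlap between diets, and Mrc1 was 1.12 times lower, also with overlap. None of these resident markers passed the test, and their median log2 fold change was -0.71 beside -0.05 over all genes tested.

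Cd163 encodes the scavenger receptor that takes up haptoglobin-haemoglobin complexes (chr6:124304656-124330527, plus strand). Its level was 11.5, 33.8 and 13.4 TPM in HFD replicates 1 to 3 and 37.2, 82.8 and 78.6 TPM in LFD replicates 1 to 3. The highest HFD-fed mouse lay just under the lowest LFD-fed mouse, and LFD replicate 1, which was low for most other markers, was not set apart in log2 CPM, with 7.42 beside 7.80 and 7.54. Its log2 fold change was -1.53 ± 0.39 (SE; edgeR adjusted p = 0.241), and it was -1.61 without LFD replicate 1. DESeq2 gave an adjusted p of 0.0155, which also missed 0.01. The paralog Cd163l1 did not pass the filter on low counts.

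Clec10a encodes a C-type lectin that binds galactose-type sugars (chr11:70156197-70170834, plus strand). It was measured at 49.8, 94.0 and 60.1 TPM in HFD replicates 1 to 3 and at 69.3, 242.4 and 117.6 TPM in LFD replicates 1 to 3. HFD replicate 2 lay above LFD replicate 1, and the other HFD-fed mice lay below all LFD-fed mice in TPM. The log2 fold change was -0.71 ± 0.38 (SE; edgeR adjusted p = 0.591), -0.88 without LFD replicate 1 and -0.26 without LFD replicate 2, its highest mouse. Of its 75-base windows, 4.44% are shared with Mgl2, the adjacent lectin gene, which itself had a log2 fold change of -1.75 ± 0.78 (SE; edgeR adjusted p = 0.502).

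Mrc1 encodes the mannose receptor CD206 (chr2:14229392-14332057, plus strand), whose start region is the first sequence above. Its level was 57.7, 81.4 and 124.5 TPM in HFD replicates 1 to 3 and 40.5, 156.5 and 182.6 TPM in LFD replicates 1 to 3. As for Csf1r, the lowest and the highest mice were LFD-fed. The log2 fold change was -0.16 ± 0.41 (SE; edgeR adjusted p = 0.948), -0.46 without LFD replicate 1 and 0.03 without LFD replicate 3. The microRNA gene Mir511 lies inside Mrc1 on the same strand.

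The lipid-associated or inflammatory markers were higher in every HFD-fed mouse in log2 CPM, and none passed the test. Gpnmb was 6.73 times higher in the edgeR fit, Trem2 2.93 times and Itgax 2.59 times. Their median log2 fold change was 1.55 beside -0.05 over all genes tested.

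Gpnmb encodes a transmembrane glycoprotein of lysosomes and melanosomes that lipid-laden macrophages make (chr6:49036546-49070929, plus strand). Its level was 77.2, 167.1 and 194.9 TPM in HFD replicates 1 to 3 and 5.23, 26.4 and 49.9 TPM in LFD replicates 1 to 3. The lowest HFD-fed mouse lay above the highest LFD-fed mouse, and the HFD mean was 146.4 ± 61.6 TPM against 27.2 ± 22.3 TPM in LFD (SD, n = 3). For Gpnmb the log2 fold change was 2.75 ± 0.61 (SE; edgeR adjusted p = 0.191), and it was 2.32 without LFD replicate 1 and 3.50 without LFD replicate 3. DESeq2 gave 2.77 with an adjusted p of 0.000294. Gpnmb is 1 of the genes that the study itself listed as changed in these mice, so its direction is not independent evidence.

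Trem2 encodes the lipid-sensing receptor of macrophages and microglia (chr17:48346401-48354147, plus strand). It was measured at 39.3, 57.2 and 62.3 TPM in HFD replicates 1 to 3 and at 2.13, 16.2 and 56.6 TPM in LFD replicates 1 to 3. The HFD-fed mice were close together in log2 CPM (5.73 ± 0.03, SD, n = 3) and the LFD-fed mice far apart (3.47 ± 1.93), and LFD replicate 3 lay between HFD-fed mice in TPM. For Trem2 the log2 fold change was 1.55 ± 0.82 (SE; edgeR adjusted p = 0.581), 1.02 without LFD replicate 1 and 2.79 without LFD replicate 3.

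Itgax encodes the integrin CD11c of dendritic cells and of macrophages in obese fat (chr7:128129547-128150657, plus strand), and was the least abundant marker. Its level was 5.55, 8.38 and 6.80 TPM in HFD replicates 1 to 3 and 0.60, 5.35 and 4.86 TPM in LFD replicates 1 to 3. The diets did not overlap, but HFD replicate 1 and LFD replicate 2 nearly met. Itgax had a log2 fold change of 1.37 ± 0.68 (SE; edgeR adjusted p = 0.554) and 0.89 without LFD replicate 1, in which 20 counts were assigned to the gene. Of its 75-base windows, 5.01% also occur in Itgad, which was at most 1.44 TPM, in HFD replicate 1. Itgad had a log2 fold change of 2.95 ± 1.02 (SE; edgeR adjusted p = 0.387) with overlap between diets. Itgam, another integrin paralog, had a log2 fold change of 1.08 ± 0.60 (SE; edgeR adjusted p = 0.605).

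**Figure D2:**
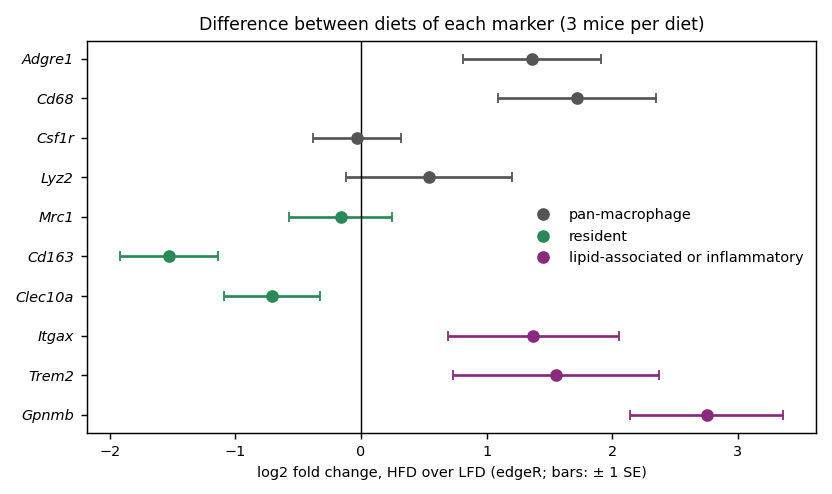
The log2 fold change of each marker, HFD over LFD, from edgeR (x axis; bars ± 1 SE; 3 mice per diet), coloured by role. It runs from -1.53 for Cd163 to 2.75 for Gpnmb, with Csf1r and Mrc1 at -0.03 and -0.16.

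Levels within a diet can be ordered in TPM, which accounts for gene length. In LFD-fed mice the order was Lyz2, Clec10a, Mrc1, Csf1r, Cd68, Cd163, Adgre1, Gpnmb, Trem2 and Itgax, and only Lyz2 and Clec10a were neighbours whose means differed by more than the larger of their SDs. In HFD-fed mice it was Lyz2, Cd68, Gpnmb, Adgre1, Mrc1, Csf1r, Clec10a, Trem2, Cd163 and Itgax, and the neighbours that differed by more than the larger SD were Lyz2 and Cd68, Trem2 and Cd163, and Cd163 and Itgax. Gpnmb was in place 8 in LFD-fed and in place 3 in HFD-fed mice, at 27.2 and 146.4 TPM. Clec10a was in place 2 in LFD-fed and in place 7 in HFD-fed mice, at 143.1 and 68.0 TPM.

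The lipid-associated and the resident markers were set against each other as group means, although no marker of either group passed the test and Mrc1 and Clec10a overlapped between diets. The mean log2 CPM of the 3 lipid-associated markers was 6.01, 6.04 and 5.96 in HFD replicates 1 to 3 and 1.92, 4.12 and 4.87 in LFD replicates 1 to 3. That of the 3 resident markers was 6.72, 7.08 and 6.54 in HFD and 7.14, 8.01 and 7.56 in LFD. In log2 CPM neither mean overlapped between diets, whereas the pan-macrophage mean did (8.55 ± 0.32 in HFD and 7.44 ± 1.08 in LFD, SD, n = 3).

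The lipid-associated mean minus the resident mean was -0.71, -1.04 and -0.58 log2 units in HFD replicates 1 to 3 and -5.22, -3.89 and -2.69 in LFD replicates 1 to 3. The diets lay 3.16 log2 units apart (-0.78 ± 0.24 against -3.93 ± 1.27, SD, n = 3), with every HFD-fed mouse above every LFD-fed mouse. This distance was 2.51 without LFD replicate 1, 2.82 without Gpnmb and 2.74 without Cd163. In summed TPM the resident markers overlapped, with 119.0 to 209.2 in HFD and 147.1 to 481.8 in LFD, while the lipid-associated markers did not, with 122.0 to 264.0 in HFD and 7.96 to 111.3 in LFD. Resident markers exceeded lipid-associated markers by 18.5, 10.0 and 3.40 times in LFD replicates 1 to 3, and the ratio was 0.976, 0.899 and 0.750 in HFD replicates 1 to 3. The 6 markers had been sorted by role, and no p is given for a score over them.

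**Figure D3:**
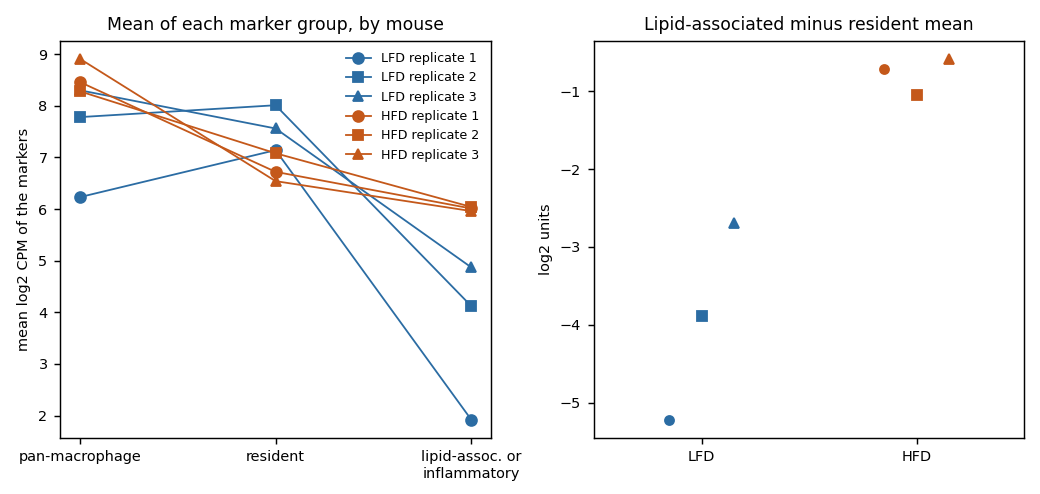
Left, the mean log2 CPM (y axis) of the pan-macrophage, resident and lipid-associated or inflammatory markers (x axis), with 1 line per mouse. Right, the lipid-associated minus the resident mean of each mouse in log2 units, from -1.04 to -0.58 in HFD and from -5.22 to -2.69 in LFD.

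A ratio of 2 transcripts within a mouse does not depend on the scaling of the library. Relative to Csf1r, in TPM, Gpnmb was 1.46, 2.45 and 1.94 in HFD replicates 1 to 3 and 0.152, 0.224 and 0.363 in LFD replicates 1 to 3. Trem2 was 0.742, 0.839 and 0.619 of Csf1r in HFD and 0.062, 0.138 and 0.412 in LFD. On this ratio neither gene overlapped between diets, and neither did Adgre1, Cd68 and Itgax, all higher in HFD, or Cd163, which was lower. The share of all genes that lie apart on such a ratio was not computed.

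Mrc1 lay close to Csf1r in every mouse, with ratios of 1.09, 1.19 and 1.24 in HFD and 1.18, 1.33 and 1.33 in LFD. Cd163 was 0.218, 0.496 and 0.133 of Csf1r in HFD and 1.08, 0.704 and 0.572 in LFD. The resident markers therefore differed, Mrc1 lying just above Csf1r in all 6 mice and Cd163 well below it in HFD-fed mice.

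The choice of the reference gene mattered. Relative to Adgre1, Gpnmb was still apart, at 1.10, 1.82 and 1.22 in HFD and 0.494, 0.411 and 0.541 in LFD, but Trem2 and Itgax overlapped. Csf1r itself was 0.756, 0.743 and 0.628 of Adgre1 in HFD and 3.25, 1.83 and 1.49 in LFD, and Lyz2, Mrc1, Cd163 and Clec10a were also lower relative to Adgre1 in every HFD-fed mouse. Adgre1 was itself higher in every HFD-fed mouse in log2 CPM, so markers level between diets, such as Csf1r, lie lower relative to it. Ratios in bulk tissue do not say which cells the transcripts came from.

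**Figure D4:**
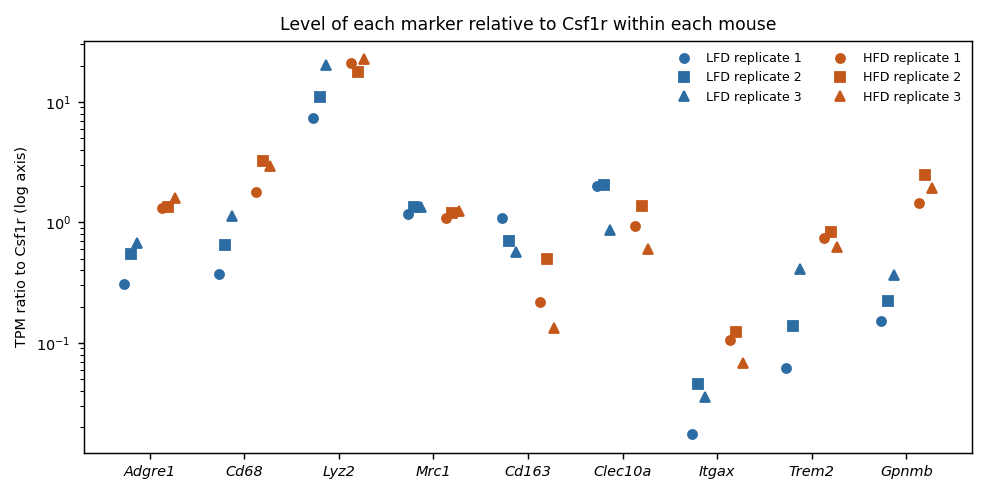
TPM of each marker divided by that of Csf1r in the same mouse (y axis, log scale), by marker (x axis), diet (colour) and replicate number (symbol). Mrc1 stays between 1.09 and 1.33, while Gpnmb runs from 0.152 in LFD replicate 1 to 2.45 in HFD replicate 2.

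Likeness of pattern was measured as the root mean square difference of log2 CPM over the 6 mice, after each gene was centred on its mean. The measure is not scaled, so genes that vary little over the mice lie near each other. Among the 10 markers, Csf1r and Mrc1 were the closest pair (0.11 log2 units) and Cd163 and Gpnmb the farthest (2.48). Adgre1 and Cd68 were 0.37 apart and Cd163 and Clec10a 0.58.

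Of the 13788 genes with a mean log2 CPM of at least 1, the nearest to Csf1r were Mrc1 (0.105 log2 units), Platr25 (0.107), Prkcb (0.107), Naaa (0.111) and Bmp2k (0.114). Those nearest to Mrc1 were Nfxl1 (0.083), Maf (0.098), March1 (0.098), Npl (0.104) and Bco2 (0.104), where Maf encodes a transcription factor of resident macrophages. The range over the mice was 1.03 log2 units for Csf1r, 1.22 for Mrc1 and 4.56 for Gpnmb. Gpnmb, with the widest of these, had no neighbour as near. Its list held Mmp13 (0.289), which encodes a collagenase, Rsad2 (0.354), which encodes an interferon-induced antiviral enzyme, F7 (0.371), Lonrf3 (0.394) and Lat2 (0.396). These are descriptions over 6 mice, in each of which all genes come from the same library and share its depth.

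Other genes of the same roles were taken from lists, and none of them passed the test in edgeR, while DESeq2 with default settings called Lgals3, Lipa and Chil3 among them. Of 15 further pan-macrophage genes, 14 had a higher fitted level in HFD-fed mice (45.6% of all genes) and 3 did so at an unadjusted p under 0.05 (3.86% of all genes), and the median over the list was 1.04 on the log2 scale. These 3 were Fcgr1, the high-affinity receptor for IgG, at 2.06 ± 0.69, Cx3cr1, the fractalkine receptor, at 1.61 ± 0.57, and Tyrobp, the adaptor of TREM2, at 1.53 ± 0.50 (log2 fold change ± SE; edgeR adjusted p of 0.373, 0.400 and 0.356). Without LFD replicate 1 they were at 1.61, 1.19 and 1.16. In TPM the diets overlapped for Fcgr1 and Tyrobp but not for Cx3cr1. The complement genes C1qa, C1qb and C1qc, named after their values were seen, had log2 fold changes of 0.01, 0.44 and 0.19 and overlapped between diets in TPM, as Csf1r did.

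Of 15 further genes of resident or alternatively activated macrophages, 11 had a lower fitted level in HFD-fed mice (54.4% of all genes) and 4 a higher one, and the median was -0.78 on the log2 scale. At an unadjusted p under 0.05, 4 were lower (6.62% of all genes) and 0 higher (3.86% of all genes) in edgeR. Retnla, a secreted product of alternatively activated macrophages, was at 18.7, 28.4 and 1.32 TPM in HFD replicates 1 to 3 and at 147.2, 143.2 and 85.1 TPM in LFD replicates 1 to 3, without overlap.

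Lyve1, the hyaluronan receptor of perivascular macrophages and lymphatic vessels, was at 6.42, 20.5 and 14.7 TPM in HFD and at 30.6, 41.1 and 44.3 TPM in LFD. Its log2 fold change was -1.34 ± 0.30 (SE; edgeR adjusted p = 0.191), and that of Retnla was -2.76 ± 1.02 (SE; edgeR adjusted p = 0.415). Without LFD replicate 1 these were -1.21 and -2.24. F13a1 and Vsig4 were the other 2 of the 4, named after their values were seen, at -0.78 and -1.34. Folr2 and Stab1, likewise, were at 0.19 and 0.15 and overlapped between diets, as Mrc1 did. The other higher genes of this list, Pf4 and Arg1, also named after their values were seen, were at 0.85 ± 0.55 and 0.77 ± 1.65 (SE). Both overlapped between diets. Arg1 was at 10.3, 40.0 and 62.8 TPM in HFD and at 0.20, 0.87 and 89.1 TPM in LFD. LFD replicate 3 thus lay above every HFD-fed mouse for Arg1, and the other LFD-fed mice lay below all of them.

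Of 16 further lipid-associated genes, 11 had a higher (45.6% of all genes) and 5 a lower fitted level in HFD-fed mice (54.4% of all genes), and 5 were higher at an unadjusted p under 0.05 (3.86% of all genes), the list median being 0.64 on the log2 scale. Atp6v0d2, a subunit of the vacuolar proton pump, was at 13.9, 18.3 and 18.6 TPM in HFD replicates 1 to 3 and at 0.25, 4.46 and 7.24 TPM in LFD replicates 1 to 3. Mmp12, the macrophage elastase, was at 64.8, 68.9 and 37.2 TPM in HFD and at 0.84, 15.0 and 20.5 TPM in LFD. Both were apart between diets, with log2 fold changes of 2.33 ± 0.77 and 2.28 ± 0.72 (SE; edgeR adjusted p of 0.365 and 0.346). Without LFD replicate 1 these were 1.81 and 1.80.

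Lgals3, which encodes galectin-3 and is also on the study's own list of changed genes, had a log2 fold change of 2.17 ± 0.51 (SE; edgeR adjusted p = 0.213), and 2.19 in DESeq2 (adjusted p = 0.0012). In edgeR it was 1.85 without LFD replicate 1. Its diets overlapped in TPM, with HFD replicate 1 at 359.7 and LFD replicate 3 at 377.0. Lipa, the lysosomal acid lipase, and Ctsl, a lysosomal protease, completed the 5 at 1.52 and 0.80 and were named after their values were seen, and DESeq2 gave Lipa 1.53 (adjusted p = 0.0011). The diets overlapped in TPM for Lipa and Ctsl as well. The list holds genes that fat cells also make, and Lpl, the lipase that adipocytes secrete, likewise named after its value was seen, was at -0.74 ± 0.87 (SE). The other lower genes, also named after their values were seen, were Acp5 at -1.13, Ctsk at -0.58, Cd63 at -0.25 and Fabp5 at -0.19.

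Of 16 genes of inflammatory monocytes or macrophages, 15 had a higher fitted level in HFD-fed mice (45.6% of all genes), 5 of them at an unadjusted p under 0.05 (3.86% of all genes), and the median log2 fold change was 1.46. The 3 with the largest differences were Chil3, a chitinase-like lectin, at 3.47 ± 0.95, Tnf, the cytokine, at 2.95 ± 0.91, and Il1b, interleukin-1β, at 2.43 ± 1.19 (log2 fold change ± SE; edgeR adjusted p of 0.275, 0.337 and 0.542). Tnf was at 1.69, 3.30 and 9.73 TPM in HFD and at 0.04, 1.17 and 1.22 TPM in LFD, without overlap. It had 1 count in LFD replicate 1. Its log2 fold change was 2.43 without that mouse and 2.20 without HFD replicate 3. The study itself reported Tnf as increased in these mice, so its direction is not independent evidence. Il1b rested on single mice, at 1.37 without HFD replicate 3, 1.87 without LFD replicate 1 and 3.90 without LFD replicate 3. DESeq2 called Chil3 (3.49, adjusted p = 0.00201), though its diets overlapped in TPM, with HFD replicate 1 at 11.05 and LFD replicate 3 at 22.41. In edgeR, Chil3 was at 3.03 without LFD replicate 1 and at 2.50 without HFD replicate 3.

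The ligands and the adaptor of the receptors were compared as well. Csf1 and Il34, the ligands of CSF1R, named for their role after their values were seen, were at -0.44 ± 0.38 and -0.23 ± 0.31 (log2 fold change ± SE), and the list of 4 tested ligand and GM-CSF pathway genes had a median of 0.19, with 0 of 4 at an unadjusted p under 0.05 in edgeR. Its largest values were those of Csf2rb and Csf2ra, the chains of the GM-CSF receptor, at 0.62 and 0.61, which were 0.23 and 0.20 without HFD replicate 3, with Csf2ra at 0.26 without LFD replicate 1 and at 1.12 without LFD replicate 3 and Csf2rb at 0.41 without LFD replicate 1. Of 7 genes of TREM2 signalling, 6 had a higher fitted level in HFD-fed mice (45.6% of all genes), and the median was 1.06. Besides Tyrobp, which is on 2 lists, these included Plcg2, a phospholipase below the receptor, at 1.19 ± 0.48, and Trem1, the related receptor of neutrophils and monocytes, at 1.98 ± 1.40. Single mice weighed on both, since Trem1 was at 0.19 without HFD replicate 3 and 3.95 without LFD replicate 3, and Plcg2 was at 0.72 without HFD replicate 3. Apoe, a lipoprotein that TREM2 binds, was lower instead, at 1137, 1058 and 959.2 TPM in HFD and at 2198, 3303 and 2641 TPM in LFD, without overlap (log2 fold change -1.08 ± 0.45, SE; edgeR adjusted p = 0.473). Apoe is made by adipocytes too, and was named after its values were seen.

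**Figure D5:**
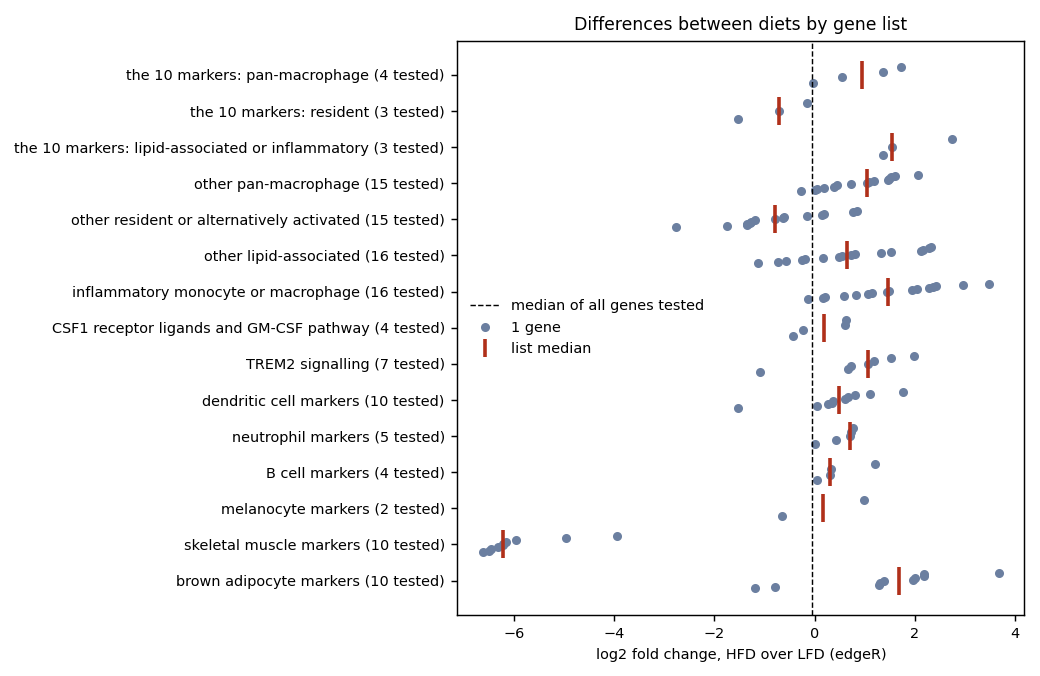
The log2 fold change, HFD over LFD, from edgeR (x axis) of each tested gene (points) by list (y axis), with the list median (red bar) and the median of all genes tested (dashed line at -0.05). The medians of the macrophage lists run from -0.78 for the other resident genes to 1.55 for the 3 lipid-associated markers, and that of the skeletal muscle markers is -6.21.

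Several markers are shared with other cells, so the markers of those cells were read. Of 10 dendritic cell markers, which bear on Itgax, 9 had a higher fitted level in HFD-fed mice (45.6% of all genes), and the median was 0.48 on the log2 scale. The 3 largest were Ccr7 at 1.77, Cd209a at -1.53 and Irf8 at 1.11. Their summed level was 32.4 to 79.7 TPM in HFD and 22.8 to 73.1 TPM in LFD, and 0 of 10 were at a count of 0 in any mouse. Neutrophil markers, which bear on Lyz2, summed to 26.0 to 180.2 TPM in HFD and 6.16 to 159.5 TPM in LFD, with a median of 0.70 over the 5 of 8 that were tested, and their part in the Lyz2 values was not tested. Among them Retnlg, S100a8 and Csf3r had the largest values, at 0.77, 0.72 and 0.70, and all 3 changed sign without HFD replicate 3. Melanocyte markers, which bear on Gpnmb, summed to 1.71 to 3.92 TPM in HFD and 2.95 to 3.63 TPM in LFD, with Tyrp1 at 0 in every mouse. Tyr, the tyrosinase gene and 1 of the 2 that were tested, was higher in every HFD-fed mouse in log2 CPM, as Gpnmb was, at 0.99 ± 0.33 (log2 fold change ± SE; edgeR adjusted p = 0.375), and the other, Pmel, was at -0.65 ± 0.44. In TPM the diets overlapped for Tyr. Dct, named after its values were seen, did not pass the filter on low counts. It was lower in every HFD-fed mouse, at 0.17, 0.06 and 0.03 TPM in HFD and 2.24, 0.99 and 0.27 TPM in LFD. The part of melanocytes in the Gpnmb values was not tested. Markers of B cells, some of which carry CD11c, summed to 2.29 to 5.61 TPM in HFD and 0.70 to 4.75 TPM in LFD, with Cd79b and Cd79a at 1.21 and 0.33.

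The tissue label was read from 10 brown adipocyte markers, none of which was at 0 in any mouse. Ucp1, the uncoupling protein that defines brown fat, was at 2728, 4021 and 796.1 TPM in HFD replicates 1 to 3 and at 443.0, 11.0 and 76.0 TPM in LFD replicates 1 to 3, and 8 of the 10 markers had a higher fitted level in HFD (45.6% of all genes), with a median log2 fold change of 1.68. Those with the largest differences were Ucp1 at 3.67, and 6.49 without LFD replicate 1, Cidea at 2.19 and Cox7a1 at 2.18. None of the 10 was called in edgeR (smallest adjusted p = 0.351), and DESeq2 gave Ucp1 an adjusted p of 0.0559. Between diets, 2 of the 10 lay apart in log2 CPM, both higher in HFD (6.72% of all genes). The 2 lower ones, named after their values were seen, were Adipoq at -1.19 and Plin1 at -0.78. All 10 skeletal muscle markers were lower in HFD without overlap (9.23% of all genes in log2 CPM and 11.6% in TPM), with a median of -6.21, and DESeq2 called all 10. The largest differences were those of Tnnc2, Ckm and Mylpf at -6.61, -6.50 and -6.46. The 10 muscle markers summed to 15.7 to 204.7 TPM in HFD and 1789 to 12060 TPM in LFD. Muscle markers thus lay apart between diets, while most brown adipocyte markers overlapped. The part of muscle and of brown adipocytes in the macrophage values was not tested.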

How the data were processed

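BAT RNA of 3 HFD-fed and 3 LFD-fed mice was compared, with diet and replicate number taken from the labels. The authors trimmed reads with Trimmomatic 0.36 and quantified them with RSEM 1.3.0 on GRCm38.p4 with the Ensembl annotation, per the labels and methods. The authors deposited expected counts per gene, which are not normalized and divide a read that matches several genes, TPM values, which RSEM scales per gene length and per library, and another value per gene, the posterior standard deviation of the count. The last was at most 0.685% of the count for any of the 10 markers in any mouse. The authors' own comparison used DESeq2 1.10.1, and no value of it was used here. Its list of changed genes was read only to say which genes named here are on it.

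Expected counts were rounded and tested in R 4.3.3 with edgeR 4.0.16 (TMM, its filter on low counts, quasi-likelihood test, diet only, Benjamini-Hochberg adjustment over 17668 genes), at the authors' thresholds of 0.01 and 1.5. Log2 CPM used a prior count of 2. Total counts per mouse were 17156991 to 21603487, so that counting error is small beside the spread between mice for all but low genes such as Itgax. Each sample is 1 mouse. Scripts were tested on simulated data. No mouse was a repeat of another of the same diet, since chi-square per degree of freedom was 71.7 to 558 in the 6 pairs within a diet. Deviations from the diet mean correlated at 0.229 to 0.522 across genes in the 3 same-numbered pairs across diets and at -0.528 to 0.053 in the 6 other pairs. Deviations within a diet cancel out for each gene, so positive values in some pairs bring negative values in others. These ranges are therefore not independent of each other. The pairing comes from the data only, since neither labels nor methods tie the numbers to fat mass.

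The alternatives were DESeq2 1.42.0, limma 3.58.1 on log2(TPM + 1) and log2(TPM + 0.1), other normalizations and filters, the replicate block, mitochondrially encoded genes left out, a looser threshold of 0.05, and each mouse left out in turn. The 10 markers and the gene lists were chosen with earlier results of these data known. The genes named are the 10 markers, the 3 tested genes of each list with the largest absolute log2 fold change (2 for lists of 5 or fewer), paralogs of the markers and the 5 genes nearest to Csf1r, Mrc1 and Gpnmb. Genes outside this rule are marked where they are named. Positions come from GENCODE M21 on GRCm38 and promoters from RefSeq on GRCm38.p6. Protein sequences were not used here.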

Additional observations from a re-analysis of the deposited data

How the results depend on the processing

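The edgeR quasi-likelihood test called 0 genes, beside 1851 at an unadjusted p under 0.05. DESeq2 called 412 genes with default settings and 386 with no independent filtering and no Cook's cutoff, limma on log2(TPM + 1) called 1, and each other setting called 0. Of the 10 markers, DESeq2 called 1, Gpnmb, under either of its settings, and each other setting called 0. The cause was not tested.

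With the replicate block, which follows the pairing of mice by number, edgeR called 0 genes, the smallest adjusted p was 0.0102, and 184 genes lay under an adjusted p of 0.05. Gpnmb was then at 3.05 (adjusted p = 0.0592), Cd163 at -1.63 (adjusted p = 0.0795) and Csf1r at 0.02 in place of -0.03. The block changed no call.

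With each mouse left out in turn, Csf1r ran from -0.30 to 0.14 and Mrc1 from -0.46 to 0.03, so neither has a direction, and the neutrophil genes Retnlg, S100a8 and Csf3r ran from -0.58 to 1.15, -0.58 to 2.13 and -0.03 to 1.41, lowest without HFD replicate 3. The other 8 markers kept their direction under each setting run. Without LFD replicate 3, Gpnmb reached an adjusted p of 0.0448 in edgeR and 215 genes lay under 0.05. The distance of lipid-associated minus resident markers ran from 2.51 to 3.78 over all settings. On log2(TPM + 1) the median of all genes was -0.18 in place of -0.05, and Csf1r and Mrc1 were at -0.20 and -0.33. Counts limit Itgax most, with 20 in LFD replicate 1.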
